A study of Arabidopsis thaliana with 4 samples.

Results

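The tiles described here are those of plates TA52 to TA99 of a tiling array on which trimethylated lysine 36 of histone H3 (H3K36me3) was profiled in Arabidopsis thaliana seedlings. The rule used identifiers only: set TA, plate numbers 52 to 99, and a value on all 4 arrays. Of the 4608 identifiers on these 48 plates 4585 met this rule, out of 21685 tiles with a value on the whole array. The 23 without a value lie on TA56 (13), TA68 (2), TA86 (4) and TA88 (4). The start of the range was set where a long stretch of low plates, TA37 to TA51, had been seen to end, so the contrast across that border is part of the choice and not a result.

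All samples came from a single group: untreated Col-0 seedlings grown in liquid culture for about 10 days. DNA recovered by chromatin immunoprecipitation (ChIP) with a commercial H3K36me3 antibody was hybridised together with input DNA, the same chromatin before precipitation. The labels give 2 extract pairs, each of ChIP with its input, called replicates 1 and 2 here, and each was deposited for 2 arrays with exchanged dyes that hold identical values. Each pair was counted as 1 sample (n = 2). Whether the pairs stem from different cultures is not stated in the labels, so the spread behind all p-values is that between 2 extract pairs and may be technical. The ratios are averages over all the cell types of a whole seedling.

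H3K36me3 is placed on nucleosomes as RNA polymerase II transcribes a gene, in Arabidopsis mainly by the methyltransferase SDG8. In plants it is known from the bodies of transcribed genes, towards their start, and is scarce over silent transposons and condensed heterochromatin. The files used here pair no tile with a gene, a sequence or a genome position, so no gene is named and the order used is that of the identifiers: plate, then well row A to H, then well column 1 to 12.

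Values are log ratios as deposited, minus the median over all tiles of the same replicate, so that 0 is the array median. No label or header states the base of the logarithm or which DNA is the numerator. High and low therefore refer to the deposited ratio, and they change places for the mark if input is the numerator.

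Along TA52 to TA99 the ratios were low on the first 12 plates, higher on the next 12, and level on average from there on. Single plates lay far above and below that level. The SD over plate means was 0.30, 0.20, 0.39 and 0.39 in the 4 blocks of 12 plates, in their order. The mean over TA52 to TA63 was -0.03 in replicate 1 and -0.02 in replicate 2. Over TA64 to TA75 it was 0.43 in replicate 1 and 0.37 in replicate 2. Over TA76 to TA87 the means were 0.49 and 0.40, and over TA88 to TA99 they were 0.46 and 0.40, each with replicate 1 given first. The gap between the first and the second block was wide against the gap between replicates. The 3 later blocks lay within 0.06 of each other in each replicate.

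The last 12 plates exceeded the first 12 by 0.49 in replicate 1 and 0.42 in replicate 2. The second block alone already exceeded the first by 0.46 in replicate 1 and 0.39 in replicate 2. The following blocks added 0.06 and then -0.03 in replicate 1, and 0.03 and then 0.0042 in replicate 2. The difference between the last and the first block had the same direction in both replicates. No p is given for it, since an exact two-sided permutation test over 2 replicates cannot go below 0.5.

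A straight line through the 48 plate means had a slope of 0.106 per 10 plates in replicate 1 and 0.0873 in replicate 2. It accounted for 13.4% of the variance between plates in replicate 1 and 12.7% in replicate 2, and single plates scattered around it with an SD of 0.38 and 0.32. The line hides the shape. Over TA52 to TA75 the slope was 0.284 per 10 plates in replicate 1 and 0.233 in replicate 2, whereas over TA76 to TA99 it was -0.119 and -0.0908. Leaving out any single plate kept the slope over all 48 plates between 0.00854 and 0.0120 per plate (mean of both replicates), the upper bound being reached without TA97. The slope over TA76 to TA99 stayed below 0 without any one plate, between -0.0151 and -0.00348 per plate. It rested on the last 3 plates together, TA97 to TA99. Over TA76 to TA96 the slope was 0.0670 per 10 plates in replicate 1 and 0.0616 in replicate 2, which turns its sign. Both lines were nearly flat against the scatter of plates. The line over TA76 to TA99 accounted for 4.15% of the variance between plates in replicate 1 and 3.33% in replicate 2. For TA76 to TA96 these shares were 1.31% and 1.46%. Over TA52 to TA96 the slope was 0.166 per 10 plates in replicate 1 and 0.136 in replicate 2. That line held 30.1% and 28.2% of the variance between plates. These selections of plates were chosen after the values were seen.

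**Figure D1:**
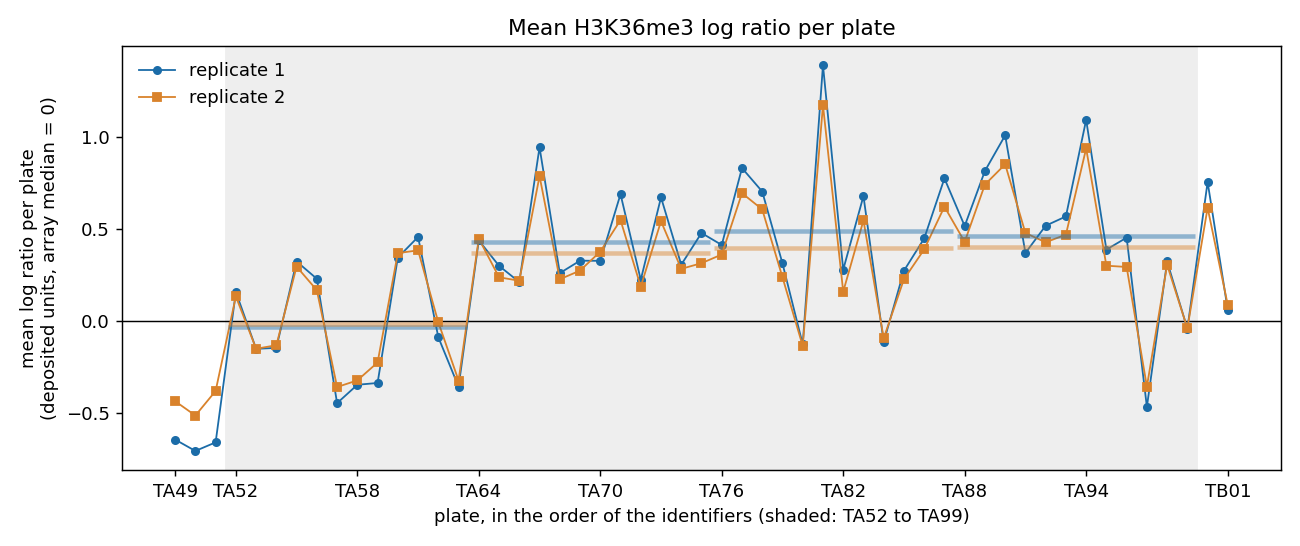
Mean log ratio per plate (vertical axis, deposited units with the array median at 0) in identifier order (horizontal axis) for replicates 1 and 2, from TA49 to TB01 with TA52 to TA99 shaded. Horizontal bars are the means of the 4 blocks of 12 plates, near 0 in the first block and between 0.37 and 0.49 in the others, and the highest plate, TA81, stands out in both replicates.

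Each plate mean was tested against the array median with limma over all 231 plates (two-sided, n = 2, Benjamini-Hochberg adjusted threshold of 0.05). Of the 48 plates, 36 were above (75.0%, against 73.2% of plates on the whole array), 5 were below (10.4%, against 17.7%), and 7 did not pass. At this setting the share above was near that of the whole array, and the share below was smaller. In the first block 4 plates were above, 4 below and 4 not called. All 12 plates of the second block were above. In the third block 10 were above and 2 not called, and in the last 10 were above, 1 below and 1 not called. The plates below the median were TA57, TA58, TA59, TA63 and TA97. These calls set a mean against a median. Tiles of the whole array averaged 0.42 in replicate 1 and 0.39 in replicate 2, so a plate of average ratio counts as above. The second block, with 0.43 in replicate 1 and 0.37 in replicate 2, lay near that average. The array median lies inside the population of low tiles, so the centring decides these calls. With the deposited zero in its place, limma called 0 plates above (also 0 at an unadjusted p under 0.05) and 47 below. Among all 231 plates it then called 3 above and 208 below. With a minimum size of 0.5 (limma's treat) 7 plates were above and 0 below (8 and 0 at an unadjusted p under 0.05). The counts among all 231 plates were then 77 and 1. After quantile normalization 37 were above and 9 below, against 171 and 46 among all 231 plates. Neither the similar share above nor the smaller share below held at every setting.

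Plate TA81 was the highest, with a mean of 1.39 in replicate 1 and 1.17 in replicate 2 (limma adjusted p = 2.38e-40). It was followed by TA94, with 1.09 in replicate 1 and 0.94 in replicate 2. The lowest was TA97, with -0.46 in replicate 1 and -0.35 in replicate 2 (limma adjusted p = 2.44e-07), close to TA57 with -0.44 in replicate 1 and -0.36 in replicate 2. The order of TA97 and TA57 differed between the replicates, whereas TA81 was the highest in both. The estimated spread was the same for every plate, with a standard error of 0.0759, so small p-values reflect the size of the mean.

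Changes from plate to plate were large against the spread between replicates. The difference between each plate and the plate before it was tested with limma over all 226 consecutive pairs of the array. Of the 47 steps within TA52 to TA99, 16 were upward (34.0%, against 36.3% over the array) and 19 downward (40.4%, against 37.2%), while 12 did not pass. These shares were near those of the array. Both replicates had the same direction at 43 of the 47 steps, and the 4 others were not called. The median size of a step was 0.31, against 0.27 over all steps of the array.

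The largest of the 226 steps of the array lay within this range, at TA81: the plate mean was 1.28 on TA81, against -0.13 on TA80, a difference of 1.51 in replicate 1 and 1.30 in replicate 2 (limma adjusted p = 9.90e-73). The next step was the largest downward one within the range, with a mean of 0.22 on TA82, against 1.28 on TA81 (a difference of -1.11 in replicate 1 and -1.01 in replicate 2; limma adjusted p = 5.05e-53). The second largest upward step was at TA64, with 0.44 on TA64, against -0.34 on TA63 (0.79 in replicate 1 and 0.77 in replicate 2; limma adjusted p = 7.31e-36). It coincides with the border between the first and the second block. The second largest downward step led into TA97, with -0.41 on TA97, against 0.37 on TA96 (-0.92 in replicate 1 and -0.65 in replicate 2; limma adjusted p = 6.35e-36).

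At the borders of the range the neighbouring plates differed as well. TA52 averaged 0.16 in replicate 1 and 0.13 in replicate 2, against -0.66 in replicate 1 and -0.38 in replicate 2 on TA51. Within TA52 the change did not fall at the border: its row A averaged -0.76 in replicate 1 and -0.57 in replicate 2, as low as most of TA51, and row E was the first high row, with 1.45 in replicate 1 and 1.29 in replicate 2 and 7 upper tiles of 12. At the other end TA99 averaged -0.04 in each replicate, against 0.75 in replicate 1 and 0.61 in replicate 2 on TB00.

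Tiles were next divided with a 2-component normal mixture, fitted over the whole array to the mean of both replicates. Its lower component had a mean of -0.31 and an SD of 0.37, its upper component a mean of 1.58 and an SD of 0.81. Upper tiles are those with a posterior above 0.99 for the upper component and a value above the mean of the lower one. Lower tiles are those more probable under the lower component or below its mean. Of the 4585 tiles, 1050 (22.9%) were upper, against 28.3% of the whole array, 3202 (69.8%) were lower and 333 (7.26%) fell into neither class. The same division made within single replicates gave 1020 upper tiles in replicate 1 and 958 in replicate 2. The 913 shared tiles were 89.5% of the first list and 95.3% of the second.

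The blocks differed mainly in how many tiles were upper, and in the mean of the remaining tiles. The share of upper tiles was 13.4% on TA52 to TA63, 24.4% on TA64 to TA75, 27.1% on TA76 to TA87 and 26.6% on TA88 to TA99. With the mixture of replicate 1 alone these shares were 13.0%, 23.8%, 26.8% and 25.3%, and with that of replicate 2 they were 12.6%, 22.0%, 24.9% and 24.0%. The first block was lowest in both. Upper tiles themselves were no higher in the later blocks: in replicate 1 they averaged 2.01 on the last 12 plates, against 2.16 on the first 12, and in replicate 2 they averaged 1.81 on the last 12, against 1.96 on the first 12.

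The tiles outside the upper population shifted too. In replicate 1 they averaged -0.10 on the last 12 plates, against -0.37 on the first 12, and in replicate 2 they averaged -0.11, against -0.32. They include the tiles of neither class, which were 4.74% of tiles on the first 12 plates and 9.76% on the last 12. Lower tiles alone shifted less. In replicate 1 these averaged -0.23 on the last 12 plates, against -0.44 on the first 12, and in replicate 2 -0.22, against -0.38. Split arithmetically, the gap of 0.49 between the last and the first block in replicate 1 held 0.30 from the share of upper tiles, -0.03 from their level and 0.22 from the level of the other tiles. In replicate 2 the gap of 0.42 held 0.28, -0.03 and 0.17 in the same order. The populations are cut by the same values they describe, so this split is a description.

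The blocks were also compared at 3 points of the distribution of tiles. The 10th percentile in replicate 1 was -0.91, -0.60, -0.57 and -0.59 in the 4 blocks in their order, and the median was -0.31, 0.03, 0.02 and 0.06. In replicate 2 the 10th percentile was -0.80, -0.55, -0.57 and -0.58, and the median was -0.28, 0.05, 0.00 and 0.10. The 90th percentile was 1.63 in the first block and between 2.21 and 2.32 in the later ones in replicate 1. In replicate 2 it was 1.50 in the first block and between 2.03 and 2.16 in the later ones. Only the first block stood apart at each of these points, in both replicates.

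**Figure D2:**
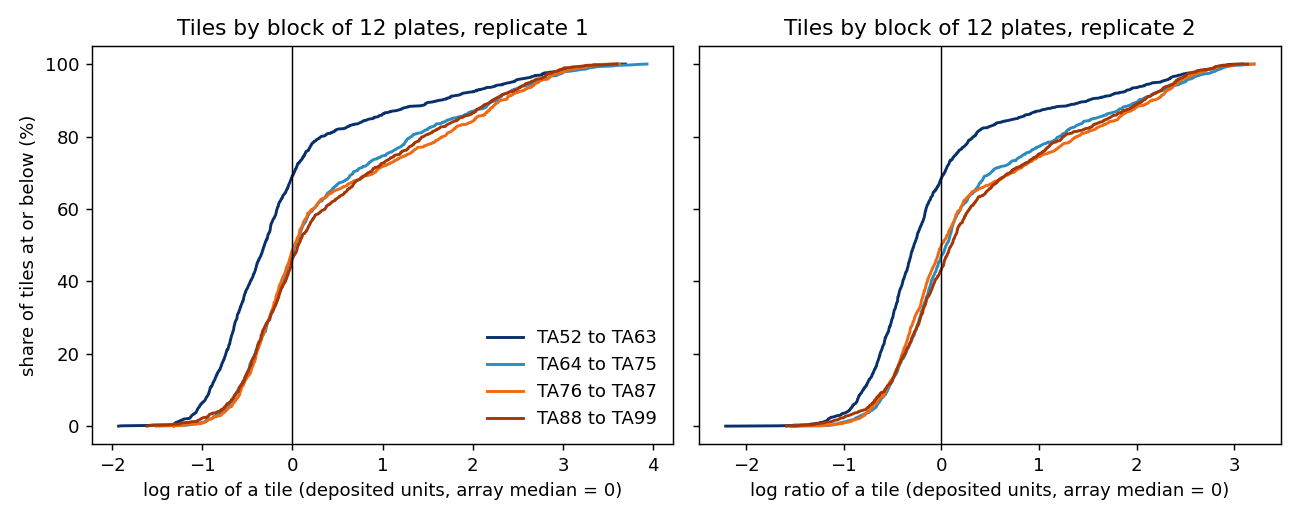
Cumulative share of tiles (vertical axis, percent) at or below a given log ratio (horizontal axis, array median at 0) for the 4 blocks of 12 plates, one panel per replicate. The curve of TA52 to TA63 lies to the left of the other blocks over most of the range, with a median of -0.31 in replicate 1 and -0.28 in replicate 2.

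Single tiles were tested against the array median in the same way (limma over all 21685 tiles). Of the 4585 tiles, 1509 were above (32.9%, against 38.9% of the array), 1421 were below (31.0%, against 32.3%) and 1655 did not pass. The share below was near that of the array. With the deposited zero in place of the median, 762 were above and 3437 below, against 4542 and 15090 over the array. By block, 222 tiles were above (19.5%) and 557 below (48.9%) on TA52 to TA63. On TA64 to TA75 412 were above (35.8%) and 277 below (24.1%). On TA76 to TA87 420 were above (36.6%) and 304 below (26.5%). On TA88 to TA99 455 were above (39.6%) and 283 below (24.7%). Calls below the median thus outnumbered those above in the first block. The opposite held in the 3 others, as it did over the whole array. Of the 2930 called tiles, 2927 had the same sign in both replicates. The smallest called mean was 0.31 in size, so with 2 replicates this agreement is largely built into the call.

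**Figure D3:**
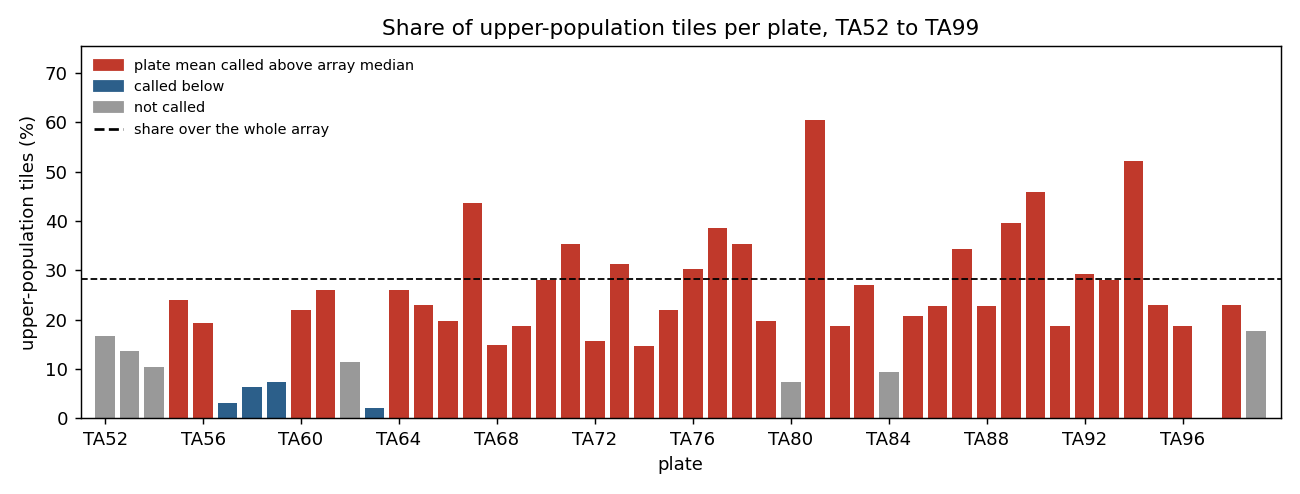
Share of upper-population tiles (vertical axis, percent) on each plate from TA52 to TA99 (horizontal axis), with bars coloured by the limma call of the plate mean against the array median and a dashed line at the share over the whole array, 28.3%. TA81 reaches 60.4% and TA97 has none.

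The share of upper tiles per plate ran from 0 of 96 on TA97 to 60.4% (58 of 96) on TA81. It was 52.1% on TA94, 45.8% on TA90 and 43.8% on TA67, and below 10% on TA57, TA58, TA59, TA63, TA80, TA84 and TA97. On TA97 the highest tile reached 0.47 and the SD over its tiles was 0.33, the smallest of the 48 plates. On TA81 all rows but A held at least 5 upper tiles, and row H averaged 2.39 in replicate 1 and 2.18 in replicate 2 with 11 upper tiles of 12.

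Upper tiles came in runs of consecutive identifiers. There were 333 runs with a mean length of 3.15 tiles, against 3.49 over the whole array and 3.57 over all other tiles. Runs of 3 or more tiles held 77.0% of the upper tiles, against 80.0% over the whole array. Of the upper tiles, 84 (8.0%) stood alone, against 5.64% over the whole array. A well without a value ended a run. The first block held 47 runs and each later block between 94 and 96, while the mean length was 3.26, 2.93, 3.31 and 3.18 in the order of the blocks. Runs of 6 or more tiles numbered 5, 12, 11 and 14 in the same order. Each later block thus held more runs, and more runs of 6 or more tiles, at a similar mean length.

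The longest run held 14 tiles (27 where a posterior above 0.5 was enough), from TA81G09 to TA81H10, with means of 2.44 in replicate 1 and 2.23 in replicate 2 and single tiles between 1.39 and 3.13. The tiles just before and after it had 0.58 and 0.40. In identifier order the longest run of the whole array held 22 tiles. With wells ordered by column, the longest run within TA52 to TA99 held 20 tiles, also on TA81, where 60.4% of tiles were upper. A single longest run cannot show whether run length depends on the order. Of the 10 runs of 10 or more tiles in identifier order, 6 lay in TA76 to TA87, 2 in TA52 to TA63 and 1 in each of the other blocks. Upper tiles in these long runs averaged 2.25 in replicate 1 and 2.04 in replicate 2, whereas those that stood alone averaged 1.77 and 1.57.

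The longest stretch without an upper tile held 149 tiles, from row F of TA96 through all of TA97 to row C of TA98. It averaged -0.42 in replicate 1 and -0.33 in replicate 2, and 86 of its tiles were called below the array median (limma). The next longest held 85 tiles, almost all on TA57, with -0.56 in replicate 1 and -0.45 in replicate 2. A well without a value ended such a stretch as well. Rows G and H of TA56 held 0 upper tiles, so missing wells cut this stretch short at its start. Of the 7 such stretches of 48 or more tiles, 6 began in the first block, and the one through TA97 was the exception. The median length of a stretch without an upper tile was 10 tiles in the first block and 6, 5 and 4.5 in the following ones.

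**Figure D4:**
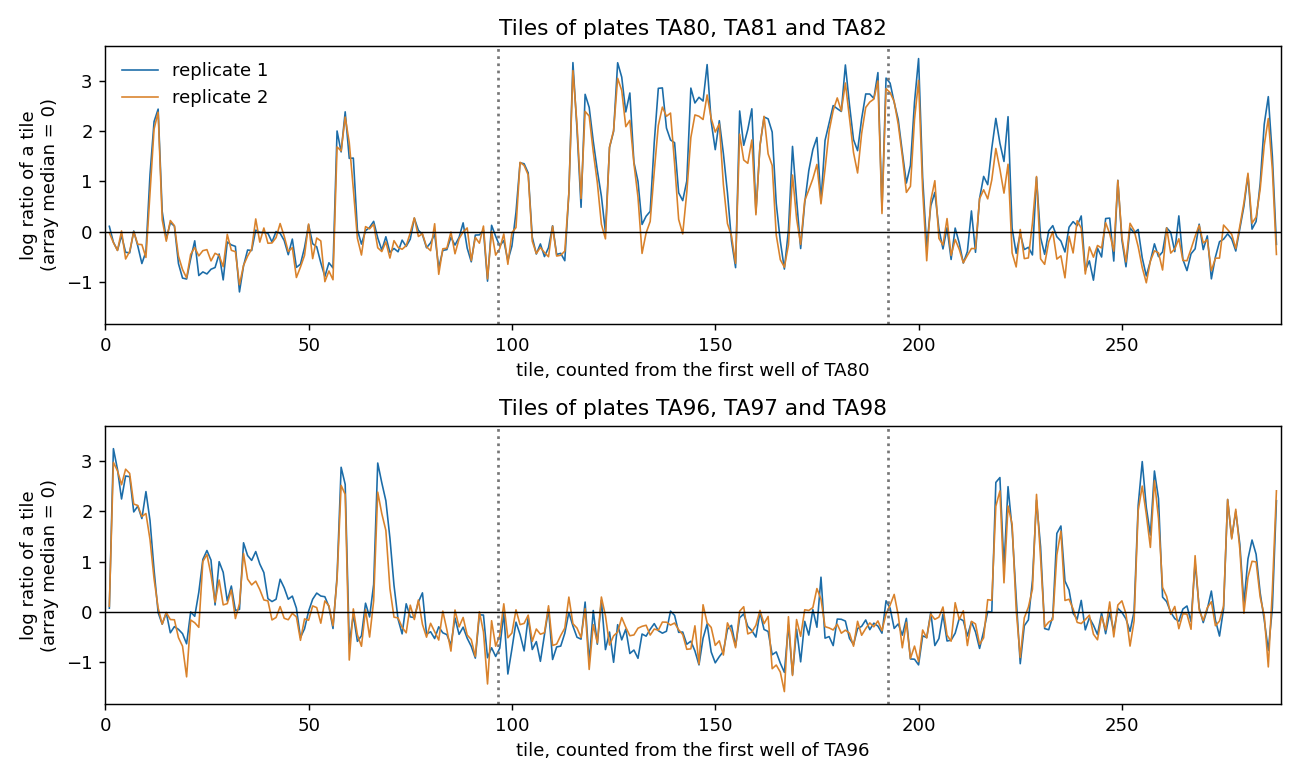
Log ratio of single tiles (vertical axis, array median at 0) in identifier order (horizontal axis) for replicates 1 and 2, on TA80 to TA82 above and TA96 to TA98 below, with dotted lines between plates. The upper panel shows the cluster of high tiles on TA81, and the lower panel the 149 tiles without an upper tile around TA97.

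The edges of runs were examined with runs taken from one replicate and values read in the other, so that the values read were not those that set the cut. The replicates were alike (r = 0.969 over tiles), so a step at the edge is largely built into this reading, and the values are given as a description. For the 61 runs of 5 or more tiles in replicate 1, replicate 2 averaged 0.33 ± 0.48 at the tiles just outside and 1.77 ± 0.68 at the outermost tiles inside (SD over 122 tiles). The next tiles inward averaged 2.08 ± 0.55, and the tiles after those 2.00 ± 0.58. With the 53 runs of replicate 2 read in replicate 1, the corresponding means were 0.59, 2.07, 2.41 and 2.33. The outermost tile was lower than the tile inside it in both readings.

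**Figure D5:**
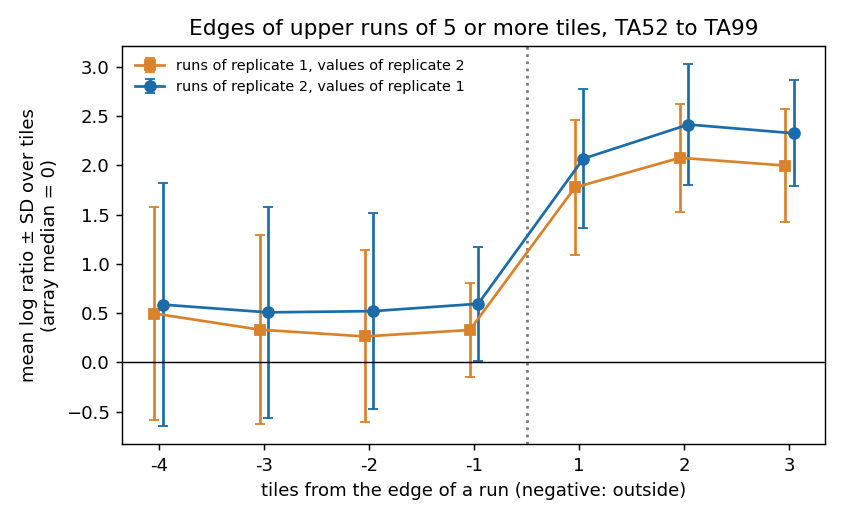
Mean log ratio (vertical axis, array median at 0, bars are the SD over tiles) by distance in tiles from the edge of upper runs of 5 or more tiles (horizontal axis, negative values outside). Runs come from one replicate and values from the other. The mean just outside is 0.33 in replicate 2 and 0.59 in replicate 1, and just inside 1.77 and 2.07.

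Consecutive tiles were alike only over short distances. As a description over tiles, which share the array and its hybridisation, Pearson r of the replicate means was 0.708 over 4561 pairs of consecutive identifiers, 0.459 at 2 identifiers apart, 0.196 at 5, 0.0354 at 96 (1 plate) and 0.00852 at 192. Over the whole array the corresponding values at 96 and 192 were 0.137 and 0.115. Across row ends on the same plate r was 0.681 (332 pairs), against 0.709 within rows. Across plate ends it was 0.761 (47 pairs), and between one row and the next in the same column it was 0.105. Likeness therefore followed the order of identifiers across row and plate ends.

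The highest tile was TA67E12, with 3.93 in replicate 1 and 3.20 in replicate 2 (mean 3.57 ± 0.52, SD, n = 2; limma adjusted p = 5.91e-15). Next came TA67A04, with 3.84 in replicate 1 and 3.11 in replicate 2 (mean 3.48 ± 0.52, SD, n = 2; limma adjusted p = 5.91e-15). TA67E12 lay inside a run, between tiles at 2.90 and 1.63. TA67A04 stood at the end of one, with 3.40 before it and 0.09 after it.

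The lowest tile was TA56G11, with -1.93 in replicate 1 and -2.21 in replicate 2 (mean -2.07 ± 0.20, SD, n = 2; limma adjusted p = 1.32e-12). The next lowest was TA58A11, with -1.90 in replicate 1 and -1.67 in replicate 2 (mean -1.78 ± 0.16, SD, n = 2; limma adjusted p = 1.98e-11). The tiles next to TA56G11 were at 0.22 and -0.53. TA58A11 followed a low tile at -1.32 and preceded a high one at 2.18. Without centring, the means were 2.40 at TA67E12, 2.31 at TA67A04, -3.23 at TA56G11 and -2.95 at TA58A11. The 4 named tiles lay on 3 plates, and the high pair differed more between replicates than the low pair.

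Set against the rest of the array, the tiles of TA52 to TA99 averaged 0.34 in replicate 1 and 0.29 in replicate 2, against 0.45 and 0.42 for all 17100 other tiles. The difference was -0.11 in replicate 1 and -0.13 in replicate 2, with no p given, for the reason stated above. For the mean of both replicates it was -0.118, and -0.0429 when medians were compared. TB00 to TB49, the 50 plates that follow, averaged 0.58 in replicate 1 and 0.49 in replicate 2, with 32.5% upper tiles. TA01 to TA36, before the low stretch, averaged 0.32 in replicate 1 and 0.30 in replicate 2, with 25.9% upper tiles. That mean pools high and low plates, from 1.06 on TA15 to -0.52 on TA28 (mean of both replicates). The difference of TA52 to TA99 from TA01 to TA36 was 0.02 in replicate 1 and -0.01 in replicate 2, so its sign differed between replicates. TA37 to TA51, the low stretch itself, averaged -0.65 in replicate 1 and -0.38 in replicate 2, with 2.39% upper tiles.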

How the data were processed

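The authors deposited 1 log ratio of ChIP and input DNA per tile and array, per the labels' 2 channels. What the authors did before deposit (numerator, log base, normalization, background treatment, build) is not given in the sources used. Both arrays of a pair were identical at all 21685 tiles, so 1 value per pair was used (n = 2), which leaves dye effects untested. The deposited medians were -1.22 in replicate 1 and -1.10 in replicate 2, and these were subtracted. The number of arrays limits the precision.

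Tiles, plate means and differences between consecutive plates were tested against 0 in limma 3.58.1 (R 4.3.3; intercept-only lmFit, eBayes, two-sided, Benjamini-Hochberg over the whole array, threshold 0.05). Added to 1 residual degree of freedom, the prior gave 23.1 for tiles and was infinite for plates and steps, which therefore share 1 spread. Neighbouring plates are not independent of each other. The mixture used scikit-learn 1.9.0. The fits were tested on simulated data. Plates were grouped into 4 blocks of 12.

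The range of plates, the blocks and the tests were chosen with earlier results of these data known. Tiles named are the 2 highest and 2 lowest called tiles of the range with the same sign in both replicates. Plates named were the highest and lowest, those at the ends of the range, those of the largest called steps and those of the longest runs. Other plates, named for their calls or shares, and the ends of runs and stretches were chosen after their values were seen. Alternatives were no centring, quantile normalization, a trended robust eBayes, a threshold of 0.01, a minimum size of 0.5 (treat), medians, single replicates, other mixture cut-offs, another well order and every sign turned.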

Additional observations from a re-analysis of the deposited data

How the results depend on the processing

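Only ratios were used, so the signal intensity behind each is unknown here, and 2 replicates limit every value. Counts of called tiles, plates and steps stayed within 1.5 times under a threshold of 0.01 and under trend and robust settings, and under quantile normalization except that 9 plates were then below in place of 5. Without centring, 762 tiles were above and 3437 below, against 4542 and 15090 over the array. Of the plates, 0 were above and 47 below (limma, 0 above also at an unadjusted p under 0.05), against 3 and 208 over the array. As deposited, the array median was -1.22 in replicate 1 and -1.10 in replicate 2, so the deposited zero lies far above it. When treat in limma required a size of 0.5, 216 tiles were below, against 1054 over the array. Of the plates, 7 were then above and 0 below (8 and 0 at an unadjusted p under 0.05), against 77 and 1 over the array. Turning every sign exchanges the calls, to 5 plates above and 36 below. It also turns the slope to -0.00968 per plate, the block difference to -0.456, the difference from all other tiles to 0.118, and the named tiles to -3.57 (TA67E12), -3.48 (TA67A04), 2.07 (TA56G11) and 1.78 (TA58A11). Medians gave a slope of 0.0111, a block difference of 0.375 and a difference from other tiles of -0.0429. Without TA97 the slope was 0.0120, against 0.00968 with it, and the block difference 0.533. The slope was 0.0259 over TA52 to TA75, -0.0105 over TA76 to TA99, 0.0151 over TA52 to TA96 and 0.00643 over TA76 to TA96. These 5 plate selections were chosen after seeing the data. Single replicates gave slopes of 0.00873 to 0.0106, block differences of 0.418 to 0.494, differences from other tiles of -0.129 to -0.108, upper shares of 20.9% to 22.2%, correlations of consecutive tiles of 0.695 to 0.706 and a longest run of 14 in each. The upper share was 30.2% with a posterior above 0.5 and 12.9% for the upper of 3 components. The longest run was 27 with a posterior above 0.5 and 20 with wells ordered by column. The correlation of consecutive tiles was 0.664 with plate means taken off and 0.0997 with wells ordered by column. No paired analysis was possible because there is a single group. Counts of calls without a replicate were not run, since no residual degree of freedom is left.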

Other observations

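The difference between replicates was not the same along the order. Replicate 1 minus replicate 2 averaged -0.02 on TA52 to TA63, 0.06 on TA64 to TA75, 0.09 on TA76 to TA87 and 0.06 on TA88 to TA99. On TA37 to TA51 it averaged -0.27. Across the 4585 tiles Pearson r between replicates was 0.969, a description over tiles that share their arrays.

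Averaged over the 48 plates, well rows ranged from 0.13 in row G to 0.43 in row C in replicate 1 and from 0.12 in row G to 0.38 in row C in replicate 2. Well columns ranged from 0.28 to 0.38 in replicate 1 and from 0.23 to 0.34 in replicate 2.

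The share of upper tiles was lowest in the first block with 2 other cut-offs of the mixture as well. With a posterior above 0.5 it was 18.2% on TA52 to TA63 and between 32.0% and 36.3% on the later blocks. For the upper of 3 components it was 8.08% on TA52 to TA63 and between 13.3% and 16.0% on the later blocks. The highest of the later blocks was TA88 to TA99 with the first rule and TA76 to TA87 with the second, so the order among them depended on the rule.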
